A study of Homo sapiens with 4 samples.

Results

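The genes described here are the type 1 insulin-like growth factor receptor IGF1R, the IGF-binding proteins IGFBP1 to IGFBP7, and the insulin receptor substrates IRS1 and IRS2, measured in A2780s cells carrying a short hairpin RNA against GALNT3. They are 10 of the 17240 genes that could be named on the array, and were chosen by name: every probe that is not a control and whose accession belongs to one of these genes was taken, which gave 17 of 41000 probes. A2780s is an established human ovarian adenocarcinoma line. The lines labelled sh-G1 and sh-G2 are each 1 clone, stably transfected with the same GALNT3 shRNA in the pSilencer 4.1 puro vector and selected in puromycin. The control, ctrl, is 1 clone that was mock-transfected with that vector and selected in the same way, and all groups therefore carry the vector and have been through selection (the labels write its parent line in 2 ways, as A2780s and as A27803). Each knockdown line was hybridised against ctrl on 2 Agilent arrays of 2 colours with the dyes exchanged: on replicate 1 the knockdown line carried Cy5, and on replicate 2 it carried Cy3.

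Insulin-like growth factors signal through IGF1R, a receptor tyrosine kinase of the cell surface. The active receptor phosphorylates the docking proteins IRS1 and IRS2, which recruit phosphatidylinositol 3-kinase and, through other adaptors, the RAS and ERK cascade. The IGF-binding proteins are secreted carriers that hold IGFs outside the cell, lengthen their life and can either limit or favour their access to the receptor, and IGFBP2 is known as a protein that is raised in the blood of women with ovarian cancer.

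The targeted gene was looked at first. The GALNT3 probe gave a log2 ratio of knockdown over ctrl of -0.09 and 0.08 on the sh-G1 arrays and of 0.12 and -0.14 on the sh-G2 arrays. Its mean was -0.01 ± 0.04 (SE, n = 2 clones, limma adjusted p = 0.963), with no order between the channels. The software marked it as well above background in ctrl on 4 of 4 arrays but in the knockdown lines on 2 of 4. Its signals lay between 70.9 and 96.7 in both channels, with the normexp offset of 50 included. Only 0.409% of probes were dimmer. So close to the floor, this single probe cannot decide whether GALNT3 was lowered. The paper itself reports reduced GALNT3 in both clones, judged from transcript and protein. The lines are named by their labels throughout. Between 88.1% and 97.0% of spots were well above background in the knockdown channel and between 95.9% and 97.6% in the ctrl channel, and 0 spots were saturated. Of the marker genes, the epithelial keratins KRT8 and KRT18 were called lower in the knockdown lines, with means of -1.03 and -2.32 on the log2 scale. They were 2 of 5 epithelial markers, where 0.906% of all genes were called lower. DCN, of 2 fibroblast markers measured, and CDH2, of 3 mesenchymal markers, were at least 1.5-fold lower on all 4 arrays, as were 1.29% of all genes. Limma called neither, at means of -3.17 for DCN (adjusted p = 0.187) and -1.50 for CDH2 (adjusted p = 0.18). The DCN mean was the lowest of all markers and differed by clone, at -4.24 for sh-G1 against -2.09 for sh-G2 (limma adjusted p = 0.03). For CDH2 no clone difference was called (adjusted p = 0.0919). Of the ovarian and Mullerian markers 0 of 4 were past either rule, of the leukocyte markers 0 of 3 and of the endothelial markers 0 of 3. The part of such shifts in the results below was not tested.

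Every comparison below is of a knockdown line with the same ctrl clone. The ctrl signals of a probe on the 4 arrays are thus readings of 1 clone. The share of all probes whose ctrl and knockdown signals do not overlap was not counted. Limma tested the mean of both clones, as a log2 ratio, over 39151 probes, which leaves out the spread of ctrl, since there is only 1 ctrl clone. A probe is called lower or higher at a Benjamini-Hochberg adjusted p under 0.05. A change of at least 1.5-fold on every array was counted beside it without a test. It takes the fold that the study asked of both arrays of a comparison, here asked of all 4 arrays at once, and corresponds to 0.585 on the log2 scale. All 17 member probes passed the filter on dim probes.

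IGF1R and IRS1 were called lower in the knockdown lines by limma, IGFBP2, IGFBP6 and IRS1 lay below ctrl by at least 1.5-fold on every array, and the other 6 genes passed neither rule in either direction. By limma 3 of the 17 probes were called lower, 1 of IGF1R and 2 of IRS1, where 0.7% of all probes were. At least 1.5-fold lower on all 4 arrays were 3 of the 17, 1 each of IGFBP2, IGFBP6 and IRS1, where 0.92% of all probes were, and 1 IRS1 probe passed both rules. By limma 0 of the 17 were called higher (0.138% of all probes), and the fold rule found 0 higher too (0.23%). At an unadjusted p under 0.05, limma had 6 of the 17 probes, all with negative means, and 5205 of the 39151. Of the 17 probes 6 were below 0 on all 4 arrays, 0 were above 0 on all 4, and 11 had values of both signs. The share of all probes with 1 sign on all 4 arrays was not counted. The members were chosen with earlier results of these data known, so the shares given here are counts and no test. By the brightest probe of each gene, 5 of the 10 members had a mean below 0 in both clones and 2 above. Of all 16882 genes 5504 were below 0 in both clones and 4863 above.

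**Figure D1:**
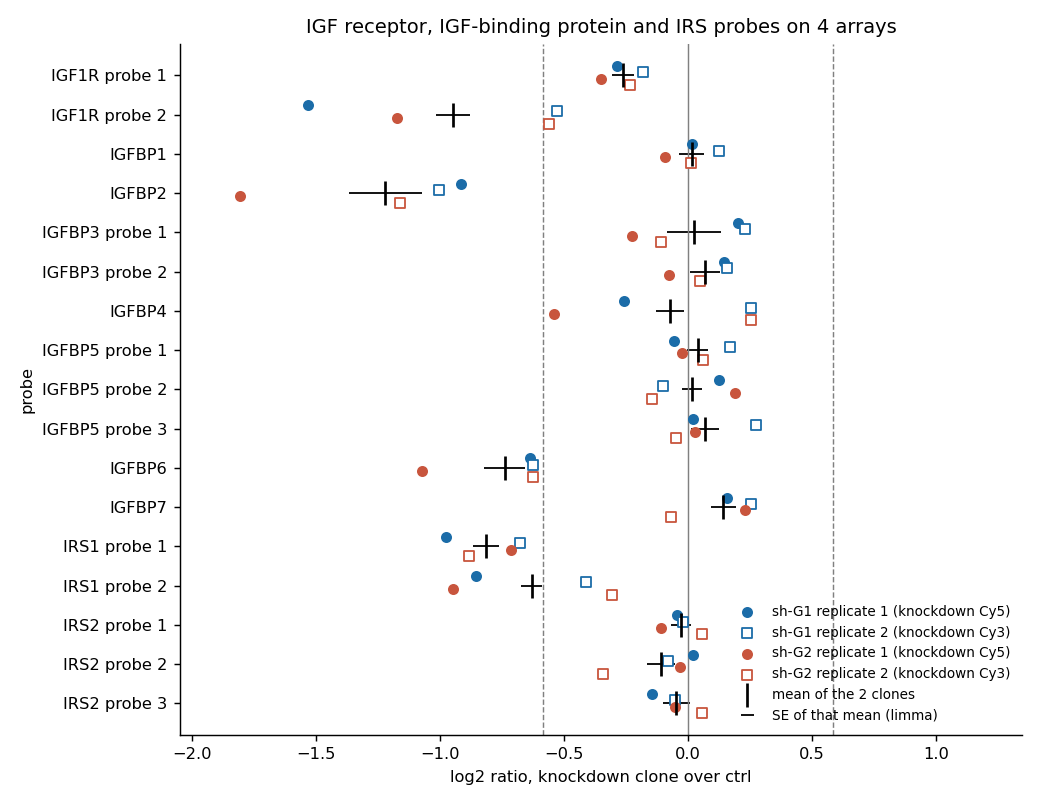
Log2 ratio of knockdown over ctrl (horizontal axis) for each of the 17 probes (vertical axis) on the 4 arrays. Circles are replicate 1 and squares replicate 2 of sh-G1 (blue) and sh-G2 (red), the black tick is the mean of the 2 clones, its bar is the SE, and dashed lines mark a 1.5-fold change. IGFBP2, IGFBP6 and the first IRS1 probe lie left of the lower dashed line on all 4 arrays, the second IGF1R probe and the second IRS1 probe on the 2 arrays with the knockdown in Cy5, and the other probes scatter around 0 or just below it.

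The windows before the start of the lower genes are shown because these 4 genes passed a rule in the same direction, with IRS2, which passed neither rule, beside IRS1. They are from RefSeq (GRCh38.p14), run 5′ to 3′ on the strand of the gene, and hold the 250 bases before an annotated start. Of the 10 members 8 have such a window, 10 windows in all, because IGFBP2 has 3 starts, of which the first and the second are shown. Capitals mark the GC box GGGCGG on either strand, so that CCGCCC is in capitals too, and neighbouring boxes may share a base. The positions are chr2:216632578-216632827 (+) and chr2:216633170-216633419 (+) for IGFBP2, chr12:53097417-53097666 (+) for IGFBP6, chr15:98648289-98648538 (+) for IGF1R, chr2:226799821-226800070 (-) for IRS1 and chr13:109786584-109786833 (-) for IRS2.
IGFBP2 start 1: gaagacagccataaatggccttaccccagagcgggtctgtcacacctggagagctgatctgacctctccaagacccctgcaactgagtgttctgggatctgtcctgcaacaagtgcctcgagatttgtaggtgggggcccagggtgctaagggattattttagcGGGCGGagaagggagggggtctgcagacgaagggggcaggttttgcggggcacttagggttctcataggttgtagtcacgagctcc
IGFBP2 start 2: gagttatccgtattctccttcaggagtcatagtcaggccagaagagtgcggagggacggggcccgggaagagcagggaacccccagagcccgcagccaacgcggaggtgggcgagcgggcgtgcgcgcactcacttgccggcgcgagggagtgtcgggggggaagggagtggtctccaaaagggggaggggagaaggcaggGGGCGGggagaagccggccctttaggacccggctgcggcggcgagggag
IGFBP6: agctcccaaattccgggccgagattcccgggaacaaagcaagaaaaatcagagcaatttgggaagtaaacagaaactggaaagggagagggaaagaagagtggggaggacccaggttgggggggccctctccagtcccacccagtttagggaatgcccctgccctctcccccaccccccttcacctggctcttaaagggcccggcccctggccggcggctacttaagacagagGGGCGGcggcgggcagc
IGF1R: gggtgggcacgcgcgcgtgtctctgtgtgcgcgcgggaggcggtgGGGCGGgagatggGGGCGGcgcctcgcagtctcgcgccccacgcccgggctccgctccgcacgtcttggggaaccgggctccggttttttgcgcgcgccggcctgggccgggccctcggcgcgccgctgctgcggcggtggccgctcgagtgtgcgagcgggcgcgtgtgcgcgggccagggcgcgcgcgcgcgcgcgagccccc
IRS1: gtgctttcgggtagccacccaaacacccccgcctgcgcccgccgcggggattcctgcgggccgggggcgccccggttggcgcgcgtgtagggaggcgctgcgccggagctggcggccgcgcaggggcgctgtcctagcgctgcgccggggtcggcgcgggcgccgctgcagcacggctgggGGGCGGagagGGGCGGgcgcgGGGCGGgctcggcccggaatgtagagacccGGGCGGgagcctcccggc
IRS2: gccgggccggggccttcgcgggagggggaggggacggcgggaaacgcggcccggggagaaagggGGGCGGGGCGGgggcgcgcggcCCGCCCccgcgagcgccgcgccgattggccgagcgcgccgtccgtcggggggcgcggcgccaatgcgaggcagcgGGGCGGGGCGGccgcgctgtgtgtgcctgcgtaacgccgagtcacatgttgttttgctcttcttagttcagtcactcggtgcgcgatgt

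A GC box was found in 8 of the 10 windows, beside 42.6% of the 35116 windows of that length in the table. IRS1 holds 4 of them, IGF1R 2, and IGFBP6 and each of the shown IGFBP2 windows 1. IRS2, whose signal was not lower by either rule, holds 5, while IGFBP3 holds 2 and IGFBP4 1. The single IGFBP5 window holds 0. The letters CCAAT, on either strand, are in 2 windows, those of IRS2 and of the third IGFBP2 start (32% of all windows), and TATAAA is in 1, that of IGFBP4 (10.7%). The share of G and C in the windows ran from 56.4% for the third IGFBP2 start, which holds 0 GC boxes, and 56.8% for the first to 80.8% for IRS1 and 81.2% for IGF1R, around a median of 58.0% over all windows, and was 76.4% for IRS2. Of the lower genes, IGF1R, IRS1 and IGFBP6 (61.2%) thus lay above that median. IGFBP2 lay above it at start 2 (69.2%) and just below it at its other starts. The windows of IGFBP3 (76%), IGFBP4 (71.6%), IGFBP5 (61.2%) and IRS2, which were not lower by either rule, all lay above it too. The share of G and C thus did not set the lower genes apart. The part of these letters in the ratios was not tested.

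The receptor was read by 2 probes, which differed in size. The second IGF1R probe (A_23_P417282) had ctrl signals of 2542, 1815, 2472 and 1992 and knockdown signals of 879, 1259.6, 1097 and 1350.4 on sh-G1 replicates 1 and 2 and sh-G2 replicates 1 and 2. All 4 ctrl signals were above all 4 knockdown signals. Its log2 ratios were -1.53, -0.53, -1.17 and -0.56, and their mean of -0.95 ± 0.07 (SE, n = 2 clones) was called lower (limma adjusted p = 0.0473). Both arrays with the knockdown in Cy5 gave the larger change and both with the knockdown in Cy3 stayed short of 1.5-fold, with means of -1.35 and -0.54. Of all probes 99.3% had a smaller difference between the dye orientations in sh-G1 and 83.6% in sh-G2. Without sh-G1 replicate 1 the adjusted p was 0.0854, and the call ended.

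The first IGF1R probe (A_23_P205986), which is spotted 10 times on the array, had ctrl signals of 374, 352, 416 and 403 and knockdown signals of 307, 310.3, 327 and 343. Its log2 ratios of -0.29, -0.18, -0.35 and -0.23 were all below 0 and all short of 1.5-fold. Over the spots of 1 array the SD of the log2 ratio lay between 0.10 and 0.19, with 8 of the 10 spots used on sh-G2 replicate 2 and 10 on the others. The mean of -0.26 ± 0.04 (SE, n = 2 clones) was not called (limma adjusted p = 0.17). The probes of the receptor thus shared a sign on every array and not a size.

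IGFBP2, a carrier of both IGF1 and IGF2, had the lowest mean of the members. The ctrl signal of its probe was 1222, 1176.5, 1107 and 968 on the 4 arrays in the same order, and the knockdown signal 648, 587, 316.5 and 433. The ctrl and knockdown signals did not overlap, and the knockdown signal was lower on both sh-G2 arrays than on both sh-G1 arrays. The log2 ratios were -0.92, -1.004, -1.81 and -1.16, with a mean of -1.22 ± 0.15 (SE, n = 2 clones), or 2.33-fold lower than ctrl. Only 0.531% of the probes tested had a lower mean. The limma adjusted p was 0.0987, so the probe was not called although it was at least 1.5-fold lower on all 4 arrays. Left out, sh-G1 replicate 1, sh-G1 replicate 2 and sh-G2 replicate 1 gave adjusted p values of 0.0139, 0.00409 and 0.000442, each a call, and sh-G2 replicate 2 gave 0.0718.

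IGFBP6, which binds IGF2 in preference to IGF1, gave ctrl signals of 3886, 3671, 3949 and 3725 and knockdown signals of 2499.5, 2378.5, 1878 and 2418.5. Each knockdown signal was below each ctrl signal, and sh-G2 replicate 1 was the lowest. Its log2 ratios were -0.64, -0.63, -1.07 and -0.62, and 3 of the 4 thus lay close to the 1.5-fold line. The mean was -0.74 ± 0.08 (SE, n = 2 clones), 1.67-fold lower than ctrl, with a limma adjusted p of 0.0885 and 1.18% of probes lower. Without sh-G1 replicate 2 or sh-G2 replicate 1 the adjusted p was 0.0254 or 0.0115, a call, and without sh-G1 replicate 1 or sh-G2 replicate 2 it was 0.0627 or 0.169.

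IRS1, the docking protein through which IGF1R and the insulin receptor reach phosphatidylinositol 3-kinase, was lower by both of its probes. On the first (A_24_P225679) the ctrl signals were 1403, 1272, 1575 and 1435 and the knockdown signals 714, 794.5, 959.5 and 777. The log2 ratios of -0.98, -0.68, -0.71 and -0.89 showed no order by clone or by dye. Their mean was -0.81 ± 0.05 (SE, n = 2 clones), 1.76-fold lower than ctrl, called by limma (adjusted p = 0.0371) and past the 1.5-fold line on each array. It was the only member probe past both rules, and the call ended without sh-G2 replicate 2 (adjusted p = 0.106).

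The second IRS1 probe (A_24_P802145) had ctrl signals of 515.5, 378.5, 538 and 398.5 and knockdown signals of 285, 284, 279 and 322.5. The knockdown signals lay within a narrow band under all ctrl signals. Its log2 ratios were -0.85 and -0.95 with the knockdown in Cy5 and -0.41 and -0.31 with it in Cy3, so the fold stayed under 1.5 on the latter arrays. The mean of -0.63 ± 0.04 (SE, n = 2 clones) was called lower (limma adjusted p = 0.0399), and the call ended without sh-G1 replicate 1, sh-G2 replicate 1 or sh-G2 replicate 2 (adjusted p = 0.0849, 0.0752 and 0.0718).

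**Figure D2:**
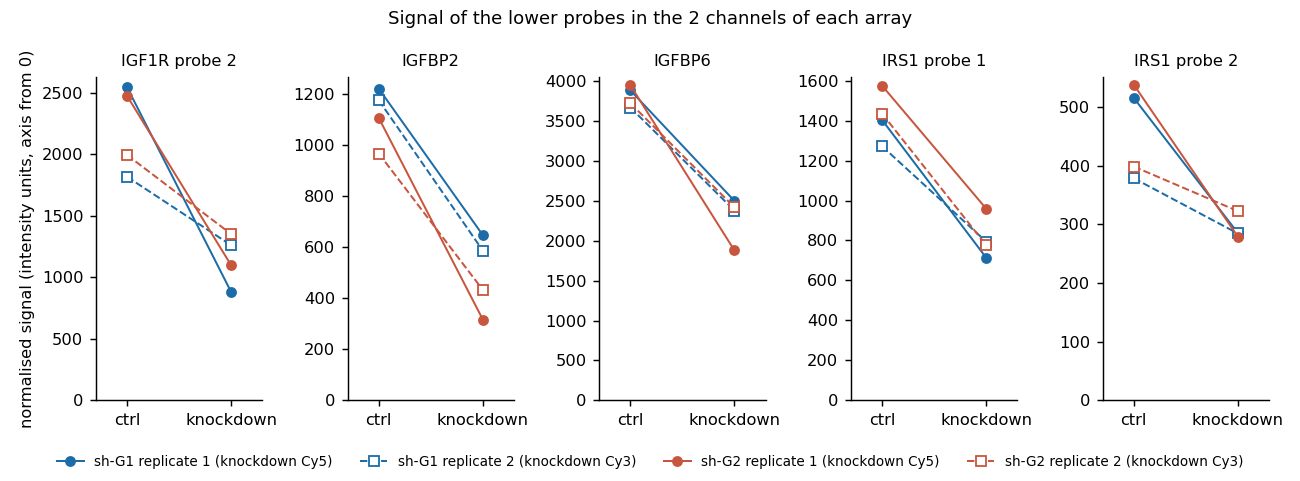
Normalised signal (intensity units, axis from 0) of the 5 probes that passed a rule, in the ctrl and the knockdown channel of each array, joined by a line per array. Blue is sh-G1 and red sh-G2, circles with full lines are replicate 1 (knockdown in Cy5) and squares with dashed lines replicate 2. All 4 lines fall in every panel, and in the panels of the second IGF1R and the second IRS1 probe the full lines fall more steeply than the dashed ones.

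IRS2, the other docking protein, stayed close to ctrl. Its 3 probes had mean log2 ratios of -0.03, -0.11 and -0.05 with SEs of 0.04 to 0.06 (limma adjusted p = 0.838, 0.558 and 0.807). The probe with the lowest of these means (A_24_P154037) was well above background in the knockdown channel on 3 of 4 arrays. Single arrays ran from -0.34 to 0.06, and each probe had an array of either sign. The signals of the third probe (A_24_P207003) lay between 634 and 744.5 in ctrl and between 610.0 and 775 in the knockdown lines, and so overlapped.

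The remaining binding proteins passed neither rule. The probes of IGFBP1, IGFBP5 and IGFBP7 were dim, with between 7.94% and 22.2% of the probes kept dimmer than they were. IGFBP1, which insulin is known to repress in liver, had log2 ratios of 0.02, 0.13, -0.09 and 0.01 (mean 0.02 ± 0.05, SE, n = 2 clones, limma adjusted p = 0.941). IGFBP5, a neighbour of IGFBP2 in the gene order, was read by 3 probes with means of 0.04, 0.02 and 0.07 and adjusted p values of 0.785, 0.913 and 0.723. These means lay above 0, where that of IGFBP2 lay below it, and single arrays ran from -0.15 to 0.28. IGFBP7, a binding protein of low affinity for IGFs, had the highest mean of the members, 0.14 ± 0.05, with 0.16, 0.25, 0.23 and -0.07 on the arrays (adjusted p = 0.399), and was well above background in the knockdown channel on 3 of 4 arrays. The IGFBP7 mean depended on the processing, at 0.22 with a normexp offset of 0 and 0.39 with the software's ratio.

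IGFBP4, which inhibits IGF action until the protease PAPPA cleaves it, followed the dye rather than the clone. Its log2 ratios were -0.26 and -0.54 with the knockdown in Cy5 and 0.25 and 0.26 with it in Cy3. The signals overlapped, from 292 to 385 in ctrl and from 255 to 366 in the knockdown lines. The mean over both orientations was -0.07 ± 0.06 (SE, n = 2 clones, limma adjusted p = 0.696), and 86.0% of probes in sh-G1 and 91.8% in sh-G2 had a smaller difference between orientations.

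**Figure D3:**
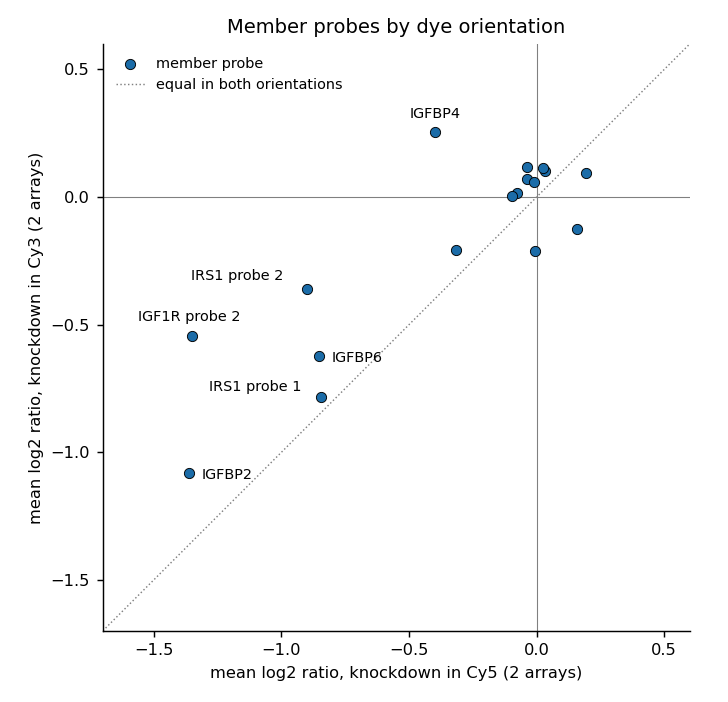
Mean log2 ratio of knockdown over ctrl of each of the 17 probes on the 2 arrays with the knockdown in Cy5 (horizontal axis) and on the 2 with it in Cy3 (vertical axis). The dotted line marks equal values. IGFBP2, IGFBP6 and the first IRS1 probe lie low in both orientations, the second IGF1R probe lies at -1.35 and -0.54, and IGFBP4 lies at -0.40 and 0.25, on either side of 0.

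IGFBP3, the main IGF carrier of the blood, went opposite ways in the clones on the probe that is spotted 10 times (A_23_P215634). The log2 ratios were 0.20 and 0.23 in sh-G1 and -0.22 and -0.11 in sh-G2. Only 14.5% of the probes kept were dimmer, and over the 10 spots of an array the SD was 0.13 to 0.17. The difference, sh-G1 minus sh-G2, was 0.38 (limma unadjusted p = 0.00847, adjusted p = 0.352). The second probe (A_24_P320699) gave 0.15 and 0.16 in sh-G1 and -0.08 and 0.05 in sh-G2, a difference of 0.16 (adjusted p = 0.808). Over both clones the means were 0.02 and 0.07 (adjusted p = 0.96 and 0.736).

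The clones were compared directly for all members, a contrast in which ctrl cancels and in which the error is that between dye-swapped arrays. Limma called 0 of the 17 probes different between the clones, where 0.123% of all probes were called, and 2 had an unadjusted p under 0.05, against 2916 of the 39151. Those were the IGFBP3 probe above and IGFBP2, whose mean was -0.96 in sh-G1 and -1.48 in sh-G2, a difference of 0.52 (unadjusted p = 0.044, adjusted p = 0.65). For the first IRS1 probe the clone means were -0.83 and -0.80, for IGFBP6 -0.63 and -0.85, and for the second IGF1R probe -1.03 and -0.87. Adjusted p values of 0.995, 0.875 and 0.91 leave a difference undetected and do not show that the clones were alike.

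**Figure D4:**
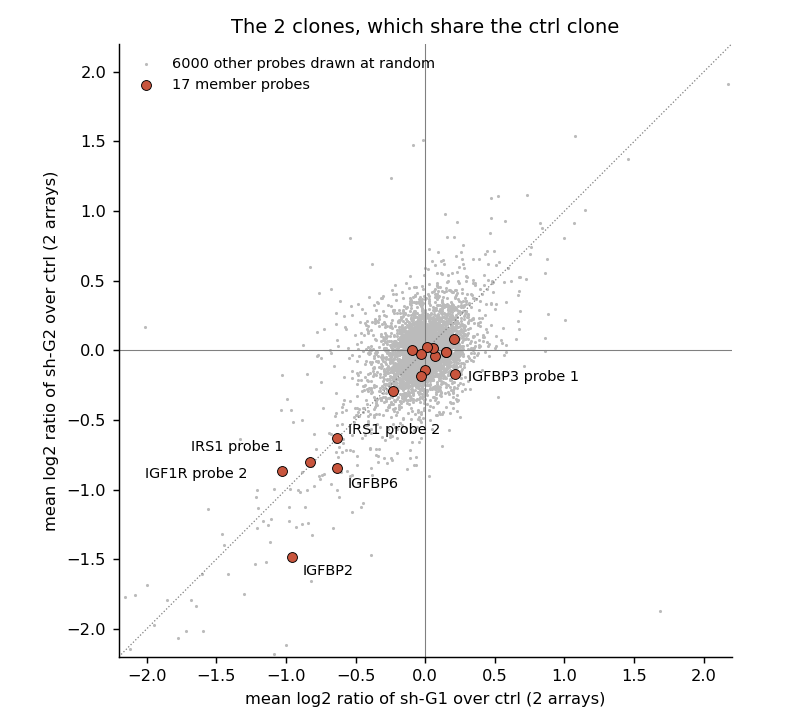
Mean log2 ratio over ctrl in sh-G1 (horizontal axis) and in sh-G2 (vertical axis), each over 2 arrays, for the 17 member probes (red) and 6000 other probes drawn at random (grey, 16 of them beyond the axes). The dotted line marks equal values. The lower members lie near this line, IGFBP2 below it, and the first IGFBP3 probe lies to the right of 0 and below it. Both axes share the ctrl clone.

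The genes whose 4 ratios lay nearest to those of a lower member were looked up over the probes kept, by Euclidean distance over the 4 arrays and with 1 probe per gene. Nearest to IGFBP2 were OLFML3 (distance 0.15 on the log2 scale), CCN1 (0.34) and APC2 (0.36). CCN1 stood there by its probe A_24_P370946, with -0.77, -1.05, -1.79 and -0.85. The brightest CCN1 probe, at -1.19, -1.15, -1.16 and -1.09, was not lowest on sh-G2 replicate 1. OLFML3 had log2 ratios of -1.03, -0.97, -1.79 and -1.07, low in both clones and lowest on sh-G2 replicate 1, as for IGFBP2. Such likeness follows from the choice by distance over the same ratios. Nearest to IGFBP6 were UTP23, LKAAEAR1 and HPGDS, at 0.15, 0.16 and 0.17, with means of -0.75, -0.70 and -0.75. Nearest to the first IRS1 probe were HAPLN3, BEND7 and AARD, at 0.08, 0.13 and 0.14, with means of -0.79, -0.81 and -0.78.

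Around the members, 107 of 110 listed genes of the IGF and insulin pathway were measured, each by its brightest probe. The serine protease HTRA1, which can cleave IGF-binding proteins, and CCN1, a matrix protein with an IGFBP-like domain, were called lower, and PIK3CA, the catalytic subunit of phosphatidylinositol 3-kinase that IRS proteins recruit, was called higher. So 2 of 107 were called lower by limma, beside 0.906% of all 16882 genes, and 1 higher, beside 0.184%. At least 1.5-fold lower on all 4 arrays were 4 of 107 (1.29% of all genes) and higher 1 (0.355%), and 18 had an unadjusted p under 0.05, as had 2588 of all 16882. The median log2 ratio of the list was -0.02, against -0.004 over all genes. The lists were chosen with earlier results of these data known, so these shares are counts set side by side and test nothing.

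PIK3CA had log2 ratios of 1.31, 1.72, 1.81 and 1.68 on the 4 arrays, a mean of 1.63 ± 0.09 (SE, n = 2 clones, limma adjusted p = 0.0278). HTRA1 gave -1.18, -1.05, -1.30 and -1.46 (mean -1.25 ± 0.09, adjusted p = 0.0423). CCN1 gave -1.19, -1.15, -1.16 and -1.09 (mean -1.15 ± 0.06, adjusted p = 0.0295), and its other probes had means of -1.41 (adjusted p = 0.0214) and of -1.12, which was not called (adjusted p = 0.0869). That last probe varied more, from -0.77 to -1.79. CCN2, also a matrix protein with an IGFBP-like domain, gave -1.83, -1.64, -2.28 and -2.56 and missed the threshold (mean -2.07 ± 0.19, adjusted p = 0.0642). CCNG2, a cyclin of the FOXO target list, was 1.5-fold lower on all 4 arrays by its brightest probe (mean -1.13 ± 0.12, adjusted p = 0.0865), and its other probes had means of -0.94 (adjusted p = 0.0389) and of -0.41 (adjusted p = 0.0707, with -0.21 and -0.05 on the arrays with the knockdown in Cy3).

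No ligand or other receptor passed a rule. Of 3 ligands IGF2 moved most, with a mean of -0.07, and of 3 further receptors IGF2R, with -0.23. In the other lists, where 0 genes passed either rule, the largest means were -0.38 for SHC2 among 13 adaptors, 0.49 for TRIB3 among 10 negative regulators of IRS signalling, -0.64 for DDIT4 among 11 genes around TSC and mTOR, 0.27 for MAP2K1 among 12 of RAS and ERK, -0.51 for FOXO1 among 7 of FOXO and GSK3, and -0.14 for IGF2BP3 among 3 IGF2 mRNA-binding proteins. The DDIT4 ratios of -0.61, -0.74, -0.77 and -0.43 were all negative (adjusted p = 0.0733), while those of TRIB3 ran from -0.34 to 1.22 (adjusted p = 0.474).

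**Figure D5:**
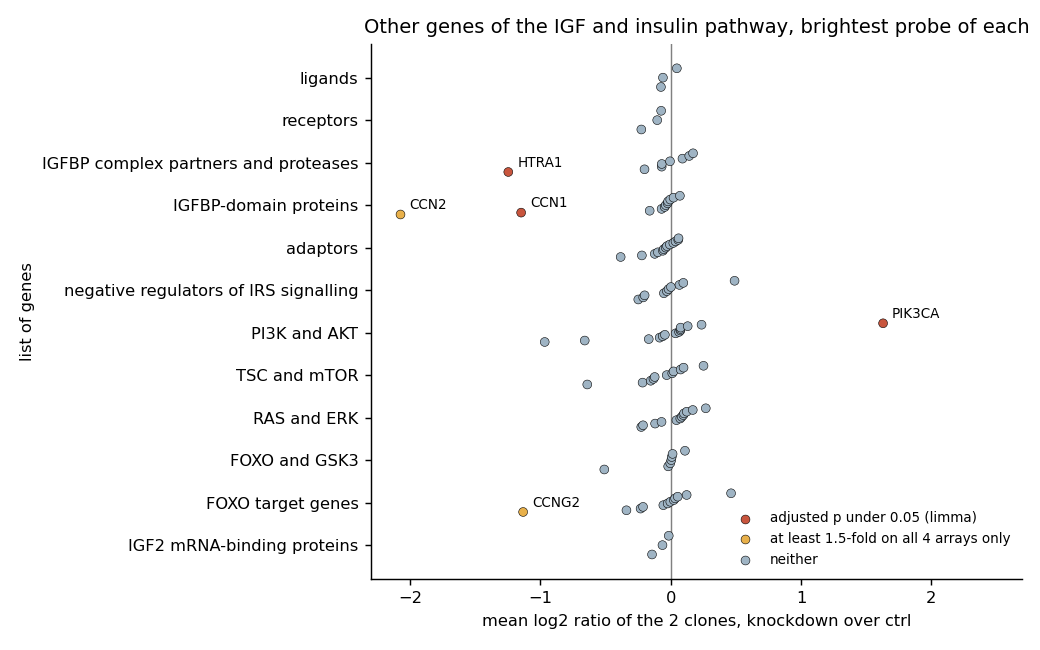
Mean log2 ratio of the 2 clones over ctrl (horizontal axis) for the measured genes of each of 12 lists (vertical axis), each gene by its brightest probe. Red points have a limma adjusted p under 0.05, yellow points are only at least 1.5-fold changed on all 4 arrays, and grey-blue points neither. HTRA1, CCN1, CCN2 and CCNG2 lie at or below -1.13, PIK3CA lies at 1.63, and most other genes lie near 0.

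Whether a call was made depended on how the single ctrl clone was treated. When ctrl was assumed to vary as much as the knockdown lines did, limma called 0 member probes and 0 of all 39151, with 6 members and 1862 probes at an unadjusted p under 0.05. The number of clones, 2 knockdown and 1 ctrl, limits the precision of every value above, and so does the number of arrays.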

How the data were processed

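Total RNA of 2 GALNT3 knockdown clones and 1 ctrl clone of A2780s was measured on 4 two-colour Agilent Whole Human Genome arrays. The authors scanned the arrays and deposited, for each spot and channel, the median signal intensity and the median local background intensity made with Agilent Feature Extraction, of which the version is 8.5.1.1 in the submitters' processing notes and 10.5.1.1 in the file headers. The deposited log10 ratio of Cy5 over Cy3 is the software's own, made after its dye normalisation. The deposited series matrix repeats these log10 ratios for 3 arrays, while its column of the second sh-G1 array holds the error of the ratio and was not used. The software's p-value of each spot was not used. The sources used here do not say whether a clone's arrays share an RNA extract, and they were averaged to 1 replicate per clone. This leaves 2 replicates. The SEs and p-values of the clone means rest on the spread between these clones, which limma moderates towards that of probes of like brightness. For the second IRS1 probe, with clone means of -0.633 and -0.626, the SE of 0.04 thus comes mostly from other probes.

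Median intensities were background corrected with normexp (offset 50) and normalised with loess within each array in limma 3.58.1 (R 4.3.3), spots marked as outliers were left out, log2 ratios were set as knockdown over ctrl, and repeated spots were averaged. The printed signals are the channel values after these steps and a further quantile normalisation of the average intensity between arrays (limma, Aquantile). That step left the log2 ratios as they were, and comparisons of signals across arrays rest on it. Of 40905 probes measured on every array, 39151 had a channel well above background on each and were kept, for 16882 genes. Of 41000 probes, 25398 were named by accession through a RefSeq table (GRCh38.p14), and 15602 were not. Clone means were tested against 0 with lmFit and eBayes with trend, and the clones against each other on the 4 arrays with a dye term, with Benjamini-Hochberg adjustment over all probes kept. The steps were tested on simulated data. Promoter windows and figures were made with Python 3.11.15 and matplotlib 3.10.9.

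The members, lists, rules and alternatives were chosen with earlier results of these data known. Named are every member probe, GALNT3, in each pathway list the genes past either rule (at most 4) or otherwise the gene with the largest mean, and for each member at least 1.5-fold changed on all 4 arrays the 3 genes nearest in pattern. Other probes of those genes, and the genes of the last part, were added after their values were seen. Alternatives were no background correction, an offset of 0, median centring, the software's ratio, the series matrix, both settings of the filter, outlier spots kept, each array left out, a ctrl clone with the spread of the others, eBayes without trend, other fold rules and gene means over probes. Fits of the 4 arrays as separate samples were added after seeing the data.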

Additional observations from a re-analysis of the deposited data

Results flagged for a closer look

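The first IGFBP3 probe (A_23_P215634) was above 0 on both sh-G1 arrays, at 0.20 and 0.23, and below 0 on both sh-G2 arrays, at -0.22 and -0.11 on the log2 scale. The difference between the clones was 0.38, with an adjusted p of 0.352 by limma, and its sign was kept under every normalisation and filter tried, with differences between 0.38 and 0.70.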

How the results depend on the processing

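The second IGF1R, both IRS1, the IGFBP2 and the IGFBP6 probes stayed below 0 under all 16 alternatives, with means from -1.23 to -0.70 for IGF1R, -0.93 to -0.74 and -0.79 to -0.47 for IRS1, -1.38 to -1.06 for IGFBP2 and -0.89 to -0.63 for IGFBP6, while which of them limma called changed. The first IRS1 probe was called under 13 of 15 alternatives with a test, the second under 10, IGF1R under 9, IGFBP2 under 6 and IGFBP6 under 4. Against 3 members, limma called lower 0 with ctrl given the spread of the other clones, 1 without a trend and from 1 to 5 with an array left out, which also leaves the dye unbalanced. With the 4 arrays as separate samples, added after seeing the data, it called 6, both with a dye term and with the clone as a random block (consensus correlation -0.656). The planned block with a dye term could not be fitted on 4 arrays. At least 1.5-fold lower were 5 probes by the mean of each clone, and 0 were 2-fold lower on every array. IGFBP6 alone left the list of 3 with median centring and with the software's ratio.

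Of the pathway genes limma called lower 4 with the software's ratio, 1 with both channels above background, 1 without a trend, 5 by gene means, 0 with the ctrl spread, 8 with the block, 6 with the dye term and from 3 to 7 without an array. Called higher were 0, 4 and 2 under the ctrl spread, the block and the dye term, and 1 to 3 without an array. Over all probes, against 274 lower and 54 higher, the software's ratio gave 408 and 118, the block 1721 and 848, the dye term 933 and 316, the ctrl spread 0 and 0, and arrays left out 322 to 867 and 56 to 339.

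Signs turned only for probes near 0. With the software's ratio the second IGFBP5 probe was at 0 and the IRS2 probes A_23_P53838 and A_24_P207003 at 0.0231 and 0.0056. With the series matrix they were at -0.0506, 0.169 and 0.0758. With an array left out, IGFBP4 ranged from -0.271 to 0.127, the second IGFBP5 probe from -0.0668 to 0.102, the first from -0.0179 to 0.0953, IGFBP1 from -0.011 to 0.0426, the first IGFBP3 probe from -0.005 to 0.0526 and the first IRS2 probe from -0.0707 to 0.0117. The replicate number marks the dye orientation, so the fit with a dye term above is the one that uses it.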

Other observations

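Some genes of the pathway lists that the naming rule left out had the same sign on all 4 arrays by at least 1 probe, and they were picked after their values were seen. PIK3R3, a regulatory subunit of phosphatidylinositol 3-kinase, had log2 ratios of -0.78, -0.51, -1.41 and -1.16 (mean -0.97 ± 0.18, SE, n = 2 clones, limma adjusted p = 0.194), while its other probe had both signs, at -0.72, 0.26, -0.65 and -0.12. AKT2, a kinase downstream of it, had -0.56, -0.37, -0.85 and -0.86 (mean -0.66 ± 0.12, adjusted p = 0.182), a second probe lay below 0 on all arrays, from -0.15 to -1.04, and a further one had both signs, from -0.91 to 0.28. SESN1, of the FOXO target list, was above 0 on every array by both of its probes, from 0.25 to 0.69 on the brighter one (mean 0.46 ± 0.06, adjusted p = 0.107). A dimmer IGF1 probe (A_23_P13907) gave -0.23, -0.23, -0.25 and -0.23 (adjusted p = 0.169), while the brightest IGF1 probe had a mean of 0.05 (adjusted p = 0.763). A dimmer SOCS3 probe (A_23_P207058) gave -0.40, -0.49, -1.17 and -1.03 (mean -0.77 ± 0.18, adjusted p = 0.251). The brightest SOCS3 probe had both signs and a mean of -0.02 (adjusted p = 0.94). None of these values passed the threshold.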
